A study of Mus musculus with 12 samples.

Results

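Chchd10 and 7 genes placed with it, Chchd2, Chchd3, Chchd4, Chchd5, Chchd6, Chchd7 and Immt, were followed on 12 Affymetrix MOE430 v2 arrays of TSC2-/- mouse embryonic fibroblasts. Members were the probe sets whose only gene symbol in the platform annotation is one of these 8 names. That gave 17 of the 45037 probe sets tested, from 7 of the 18193 genes with such a probe set. Chchd2 had none, because each of the 2 probe sets that list it also lists other genes, and it is not analysed further. The set is taken here as chosen by the intensities of PGC-1alpha and GFP cells, where Chchd10 changed most of these genes, so the PGC-1alpha values below are a description and no p-value is given for a member there. How far the rapamycin values entered the choice is not recorded, and the p-values given for that comparison stand under that reservation.

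All 4 groups were TSC2-/- fibroblasts, which lack the inhibitor of the growth-promoting kinase mTORC1 that TSC2 forms with TSC1, grown in DMEM with 10% CCS. In the rapamycin experiment, 3 cultures received 20 nM rapamycin, an inhibitor of mTORC1, for 14 h and 3 received the DMSO vehicle for 14 h. In the adenovirus experiment, confluent cells were infected for 10 h with virus carrying PGC-1alpha (3 arrays) or GFP (3 arrays) and were harvested 14 h after the medium was changed. The design text calls the samples biological triplicates. Per the labels every group is TSC2-/-, and no wild-type cells were among them. The Tsc2 probe set read 182, 217 and 196 in rapamycin cells, against 248, 259 and 278 in vehicle cells, and fell (-0.40, SE 0.07, limma adjusted p = 0.00079). It read 237, 233 and 257 in PGC-1alpha cells, against 203, 219 and 252 in GFP cells (0.11, SE 0.08, limma adjusted p = 0.68). No source used here says whether it lies in the deleted part, so it does not check the deletion. The brightest of 5 probe sets of Ppargc1a, the gene that encodes PGC-1alpha, read 2295, 2183 and 2555 in PGC-1alpha cells and 81.0, 81.0 and 101 in GFP cells. The other 4 did not pass, with log2 changes between -0.13 and 0.03 (limma adjusted p of 0.54 to 0.99), and read at most 43.8 on any array of that experiment.

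CHCHD proteins are small proteins of the mitochondrial intermembrane space that carry paired cysteines in a coiled-coil-helix-coiled-coil-helix fold. Most enter through the disulfide relay, in which CHCHD4 (MIA40) oxidises the cysteines of the incoming protein and so traps it. CHCHD3 (MIC19) and CHCHD6 (MIC25) bind IMMT (MIC60) in the MICOS complex, which holds the necks of cristae, the folds of the inner membrane where respiration takes place. CHCHD10 and its close relative CHCHD2 form complexes in the same compartment, and mutations in human CHCHD10 cause motor neuron disease and mitochondrial myopathy. IMMT has no CHCH fold itself. The label of cristae proteins is thus best met by Chchd3, Chchd6 and Immt, while Chchd4 belongs to import and the part of Chchd5 and Chchd7 in cristae is not settled here.

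The 250 bases before the start that the RefSeq promoter table lists (GRCm38.p6) were read for the 6 members found there, and 3 are shown because they belong to the gene with the largest PGC-1alpha change, the gene with the largest rapamycin fall and a gene whose groups overlapped in both comparisons. Capitals mark matches to the motifs searched, and each sequence runs 5′ to 3′ on the strand of its gene. The listed starts of Immt and Chchd3, whose windows are not shown, lie inside the outer bounds of the gene in RefSeq, so their windows overlap the gene.
Chchd10, chr10:75932880-75933129, plus strand: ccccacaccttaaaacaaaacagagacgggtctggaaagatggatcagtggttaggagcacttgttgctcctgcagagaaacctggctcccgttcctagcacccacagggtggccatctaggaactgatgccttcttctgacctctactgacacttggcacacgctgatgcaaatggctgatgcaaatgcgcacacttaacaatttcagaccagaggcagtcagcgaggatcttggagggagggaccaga
Chchd4, chr6:91473424-91473673, minus strand: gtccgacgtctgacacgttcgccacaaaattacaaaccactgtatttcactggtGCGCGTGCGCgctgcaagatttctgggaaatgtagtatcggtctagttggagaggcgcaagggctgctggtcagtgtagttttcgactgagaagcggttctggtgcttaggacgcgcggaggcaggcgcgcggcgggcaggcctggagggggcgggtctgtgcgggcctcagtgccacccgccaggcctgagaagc
Chchd6, chr6:89595653-89595902, minus strand: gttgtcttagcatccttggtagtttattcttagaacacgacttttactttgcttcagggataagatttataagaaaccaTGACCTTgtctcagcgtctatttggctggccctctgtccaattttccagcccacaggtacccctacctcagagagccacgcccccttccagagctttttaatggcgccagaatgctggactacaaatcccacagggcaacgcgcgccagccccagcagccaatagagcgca

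Both strands were searched for AAGGTCA, the core site of estrogen-related receptors, which work with PGC-1alpha, for its extended form TNAAGGTCA, which contains it, and for the sites of NRF-1 (by its palindromic consensus), YY1 (AANATGGCG) and GABP (CCGGAAGTG), also regulators of mitochondrial genes. The Chchd10 window held none of these letters. The Chchd4 window held 1 NRF-1 match, from 196 to 187 bases before the start, on the opposite strand, and was 1 of 6 member windows with that match, against 3.74% of 32851 promoter windows. The Chchd6 window held 1 AAGGTCA match, on the opposite strand from 171 to 165 bases before the start, against 4.08% of all windows. The other 3 motifs had no match in the 6 member windows and occurred in 1.14%, 1.12% and 1.44% of all windows. GC content was 52.4% for Chchd10, 61.2% for Chchd4 and 50.4% for Chchd6, with a median of 52.4% over all windows. A match is a string of letters and was not tied to any expression value.

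Values are RMA intensities, a linear brightness per probe set. Each experiment was normalized by itself, so only arrays of the same experiment are compared. Array medians lay between 77.5 and 81.0, and the correlation across probe sets between arrays of 1 group was never under 0.997. GFP arrays varied most, with an SD of log2 differences between 2 arrays of up to 0.17, against at most 0.11 among PGC-1alpha arrays. GFP replicate 3 lay nearer to the PGC-1alpha arrays (0.14 to 0.15) than to the other GFP arrays (0.16 and 0.17). Of the fibroblast markers, Col1a1, Col1a2, Col3a1 and Vim had group means of 7140 to 12380, while Twist1, Pdgfrb and Thy1 had 174 to 352. Dcn had 3150 to 5429 and Pdgfra 1494 to 2465. The epithelial markers Epcam and Krt18 had 388 to 771, above Twist1, Pdgfrb and Thy1 and below the other measured fibroblast markers. Krt8 had 119 to 128 and Cdh1 had 30.4 to 38.9. Markers of skeletal muscle, where CHCHD10 is abundant, were dim, with group means of at most 152 (Ckm in GFP cells) and 0 of 6 called in either comparison. No array reads a marker as 0, since RMA gives every probe set a positive value.

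Chchd10 was 4.01-fold and 3.02-fold brighter in PGC-1alpha than in GFP cells on its 2 probe sets. Its brighter probe set read 2599, 2433 and 2724 in PGC-1alpha cells, against 637, 586 and 715 in GFP cells. The dimmer one read 1383, 1312 and 1450.1 in PGC-1alpha cells, against 448, 441 and 484 in GFP cells. On both probe sets every PGC-1alpha array lay far above every GFP array. The means of the brighter set were 2585 ± 146 in PGC-1alpha cells and 646 ± 65.1 in GFP cells (SD, n = 3 each), a log2 change of 2.00 (SE 0.08) or 4.01-fold. The dimmer set gave 1381 ± 69.3 in PGC-1alpha cells and 458 ± 23.2 in GFP cells (SD, n = 3 each), a log2 change of 1.59 (SE 0.06) or 3.02-fold. Ranked by log2 change among 45037 probe sets, they stood at ranks 2 and 3, with 1 Ppargc1a probe set above them. In bulk RNA, a change in the share of cells of a type and a change in RNA per cell cannot be told apart. The suffix _s_at marks probe sets whose probes may match more than one transcript, and both Chchd10 probe sets carry it.

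With rapamycin Chchd10 moved the other way and by much less. The brighter probe set read 642, 684 and 627 in rapamycin cells, against 769.8, 788 and 794 in vehicle cells, and the groups did not overlap. It fell by 0.27 on the log2 scale (SE 0.06, limma adjusted p = 0.0024), from means of 651 ± 29.5 in rapamycin cells and 784 ± 12.6 in vehicle cells (SD, n = 3 each). The dimmer probe set read 407, 439 and 440.0 in rapamycin cells, against 485, 465 and 444 in vehicle cells. Its groups also did not overlap, but they came within a few units, and the change of -0.12 (SE 0.06) did not pass (limma adjusted p = 0.18). The 2 probe sets thus gave the same direction and a different call.

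**Figure D1:**
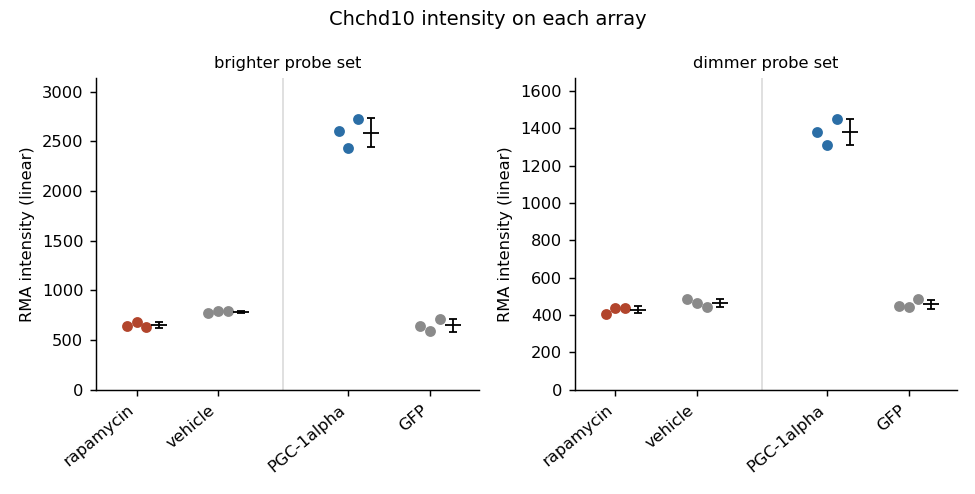
Intensity (linear RMA scale, axis from 0) of the 2 Chchd10 probe sets on each of the 12 arrays, with points for arrays and the mean and SD beside them; the grey line parts the experiments, which were normalized apart. PGC-1alpha arrays read 2433 to 2724 on the brighter set against 586 to 715 in GFP cells, and rapamycin arrays read 627 to 684 against 769.8 to 794 in vehicle cells.

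Over the 17 probe sets, 8 fell and 1 rose with rapamycin at a limma adjusted p under 0.05, where 14.0% of all probe sets tested fell and 11.5% rose. Brighter probe sets were called more often. Of 24968 with a mean log2 of at least 6, 6122 fell and 4444 rose. Of the 14 member probe sets among them, 8 fell and 2 rose. The median log2 change was -0.12 over the 17 and 0.00 over all probe sets. In 9 of the 17 every rapamycin array lay below every vehicle array, and in 2 every rapamycin array lay above (19.9% and 18.0% of all probe sets). Taking the brightest probe set of each of the 7 genes, Chchd10, Chchd3, Immt, Chchd4 and Chchd7 fell, 0 rose, and Chchd5 and Chchd6 did not pass. By that choice of probe set 18.0% of all genes fell and 11.3% rose. Array values were scaled on the bacterial spike controls as an alternative, which shifted the median of all probe sets by -0.22. That shift was the same for every probe set, so a fall could only deepen in this setting. Then 13 of the 17 fell and 0 rose, where 23869 of all 45037 probe sets fell and 1253 rose, and the 8 falls were all kept, while the rise of 1 Chchd7 probe set no longer passed.

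Among the MICOS members, Chchd3 and Immt fell together with rapamycin and Chchd6 did not pass. Chchd3, which ties the complex to the outer membrane, read 863, 939 and 866 in rapamycin cells, against 1286, 1260.4 and 1176 in vehicle cells. All rapamycin arrays lay below all vehicle arrays. Its log2 change was -0.48 (SE 0.06, limma adjusted p = 4.6e-05). A second Chchd3 probe set fell by 0.25 (SE 0.06, limma adjusted p = 0.0067), with means of 176 ± 10.9 in rapamycin cells and 209 ± 5.4 in vehicle cells (SD, n = 3 each). The third was dim, at 20.1 to 27.3 in rapamycin cells and 20.6 to 24.7 in vehicle cells, and did not pass (0.03, SE 0.10).

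Immt, the core subunit of MICOS that bends the membrane at the crista neck, fell on all 3 of its probe sets. The brightest read 780.1, 818 and 784 in rapamycin cells, against 1028, 1124 and 1081 in vehicle cells. The second read 666, 667 and 675 in rapamycin cells, against 909, 919.7 and 924 in vehicle cells. The groups were well apart on both. Their log2 changes were -0.44 (SE 0.06, limma adjusted p = 5.9e-05) and -0.46 (SE 0.05, limma adjusted p = 2.0e-05), and the third probe set fell by 0.36 (SE 0.06, limma adjusted p = 0.00038). Immt was the member with the most probe sets that fell. That count depends on how many probe sets a gene has, 3 for Immt and 1 for Chchd4.

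Chchd6, the partner of Chchd3 in MICOS, read 326, 333 and 329.7 in rapamycin cells, against 328, 323 and 335 in vehicle cells. These ranges lay almost on top of each other. Its log2 change was 0.00 (SE 0.05, limma adjusted p = 0.98), and the dimmer probe set gave -0.03 (SE 0.09, limma adjusted p = 0.83). Scaled on the spike controls the brighter set was at -0.22 and passed (limma adjusted p = 0.043), a value equal to the shift of the median of all probe sets in that setting.

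Chchd4, the oxidoreductase of the import relay, fell with rapamycin and had the lowest log2 change of the 17 probe sets. It read 434, 454 and 456 in rapamycin cells, against 688, 681 and 669.7 in vehicle cells. The lowest vehicle array stood well above the highest rapamycin array. Means were 448 ± 12.1 in rapamycin cells and 680 ± 9.3 in vehicle cells (SD, n = 3 each), a log2 change of -0.60 (SE 0.05, limma adjusted p = 3.0e-06). It has a single probe set on this array.

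Chchd5 and Chchd7, small CHCH proteins whose function is less well known, gave mixed results. Chchd5 read 363, 332 and 332 in rapamycin cells, against 301, 299 and 317 in vehicle cells on its brighter probe set. The groups did not overlap, but the log2 change of 0.16 (SE 0.06) did not pass (limma adjusted p = 0.056). It passed in 3 of 12 alternatives, at a lowest limma adjusted p of 0.028 with quantile normalization over 12 arrays. Without rapamycin replicate 1 it was 0.12 (0.19), and scaled on the spike controls its direction turned to -0.06 (0.60). The dimmer Chchd5 probe set was at -0.06 (SE 0.06, limma adjusted p = 0.48).

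Chchd7 had 4 probe sets, which gave different directions with rapamycin. The brightest read 217, 239 and 238 in rapamycin cells, against 273, 266 and 273 in vehicle cells, and fell by 0.23 (SE 0.06, limma adjusted p = 0.0087). The second read 163, 157 and 163 in rapamycin cells, against 129, 129 and 132 in vehicle cells, and rose by 0.31 (SE 0.05, limma adjusted p = 0.00056). Neither pair of groups overlapped, so these probe sets opposed each other on the same arrays. Scaled on the spike controls the rise was 0.09 and did not pass. The other 2 stayed between 10.4 and 15.1 on the 6 arrays and did not pass. Which transcripts the 4 probe sets match was not tested.

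**Figure D2:**
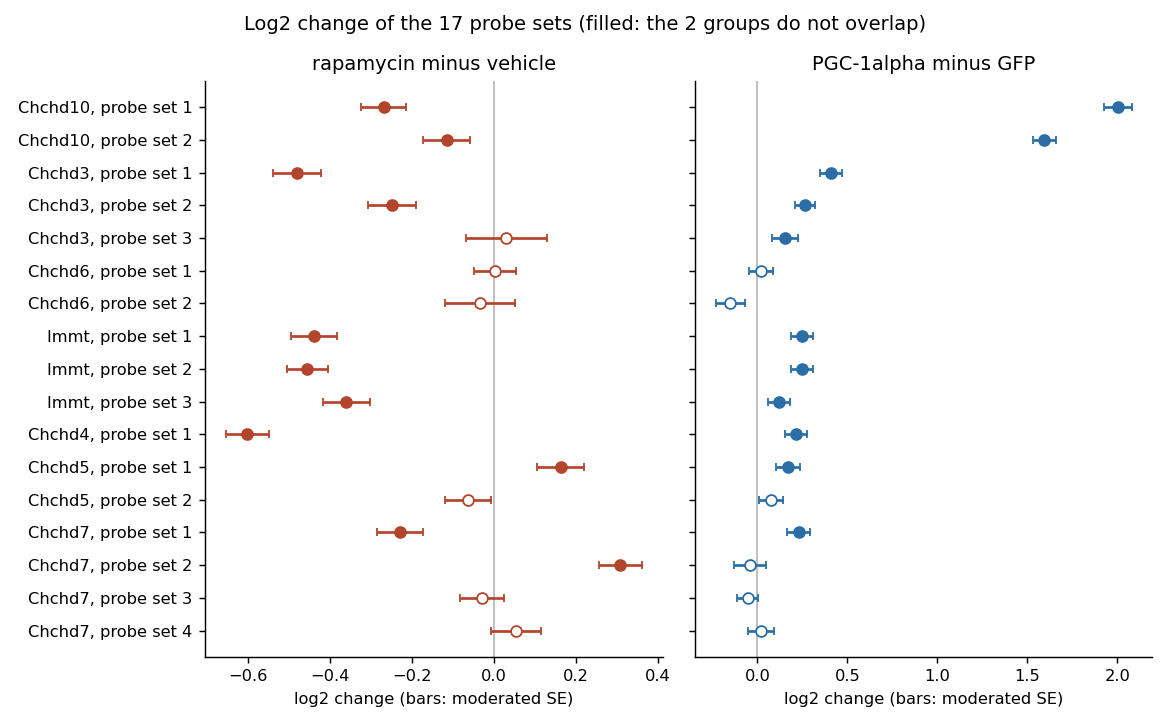
Log2 change of each of the 17 member probe sets, numbered by brightness within a gene, for rapamycin minus vehicle (left) and PGC-1alpha minus GFP (right, wider scale); bars are limma's moderated SE and filled points mark groups whose arrays do not overlap. Chchd4 is lowest with rapamycin at -0.60, and both Chchd10 probe sets stand apart with PGC-1alpha at 2.00 and 1.59.

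With PGC-1alpha, 9 of the 15 probe sets of the other members lay above GFP on every array and 6 overlapped. With Chchd10 included, in 11 of the 17 probe sets every PGC-1alpha array lay above every GFP array, and in 0 of the 17 every one lay below (7.76% and 7.91% of all probe sets). At a limma adjusted p under 0.05, 4 of the 17 were called higher, the 2 of Chchd10 and 2 of Chchd3, and 0 lower, where 0.997% and 0.955% of all probe sets were called. As this contrast chose the set, nothing is read from these counts. The count was 7 without GFP replicate 3, where 1957 of all 45037 probe sets were called higher, and 3 without any other single array.

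Chchd3 was the next largest after Chchd10. It read 1561, 1482 and 1601 in PGC-1alpha cells, against 1210.5, 1102 and 1189 in GFP cells, and the second probe set read 261, 264 and 273 in PGC-1alpha cells, against 229, 219 and 216 in GFP cells. Neither pair of groups overlapped. The log2 changes were 0.41 (SE 0.06) and 0.26 (SE 0.06), and the third, a dim set, was at 0.15 (SE 0.07).

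Immt read 1156, 1164 and 1168 in PGC-1alpha cells, against 984, 921 and 1041 in GFP cells on its brightest probe set. Its 3 probe sets gave log2 changes of 0.25, 0.25 and 0.12 (SE 0.06 each), all without overlap. Chchd6 overlapped on both of its probe sets, with 269, 294 and 264 in PGC-1alpha cells and 289.7, 270.0 and 256 in GFP cells on the brighter one. Its changes were 0.02 (SE 0.07) and -0.15 (SE 0.08). Every PGC-1alpha array thus lay above every GFP array on all probe sets of Chchd3 and Immt, while Chchd6 overlapped. The Immt sets and the dim Chchd3 set were not called at a limma adjusted p under 0.05.

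Chchd4 read 902, 821 and 867 in PGC-1alpha cells, against 765, 715 and 755 in GFP cells, a log2 change of 0.21 (SE 0.06) without overlap. The brighter Chchd5 probe set read 291, 295 and 317 in PGC-1alpha cells, against 277, 246 and 279.8 in GFP cells, a change of 0.17 (SE 0.07), also without overlap, and the dimmer one overlapped at 0.07 (SE 0.07). The brightest Chchd7 probe set read 269.9, 251 and 268 in PGC-1alpha cells, against 216, 215 and 241 in GFP cells, a change of 0.23 (SE 0.06), and the other 3 overlapped at -0.04, -0.05 and 0.02 (SE 0.09, 0.06 and 0.07). Set against the 2.00 of Chchd10, these changes were all below 0.5 on the log2 scale.

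**Figure D3:**
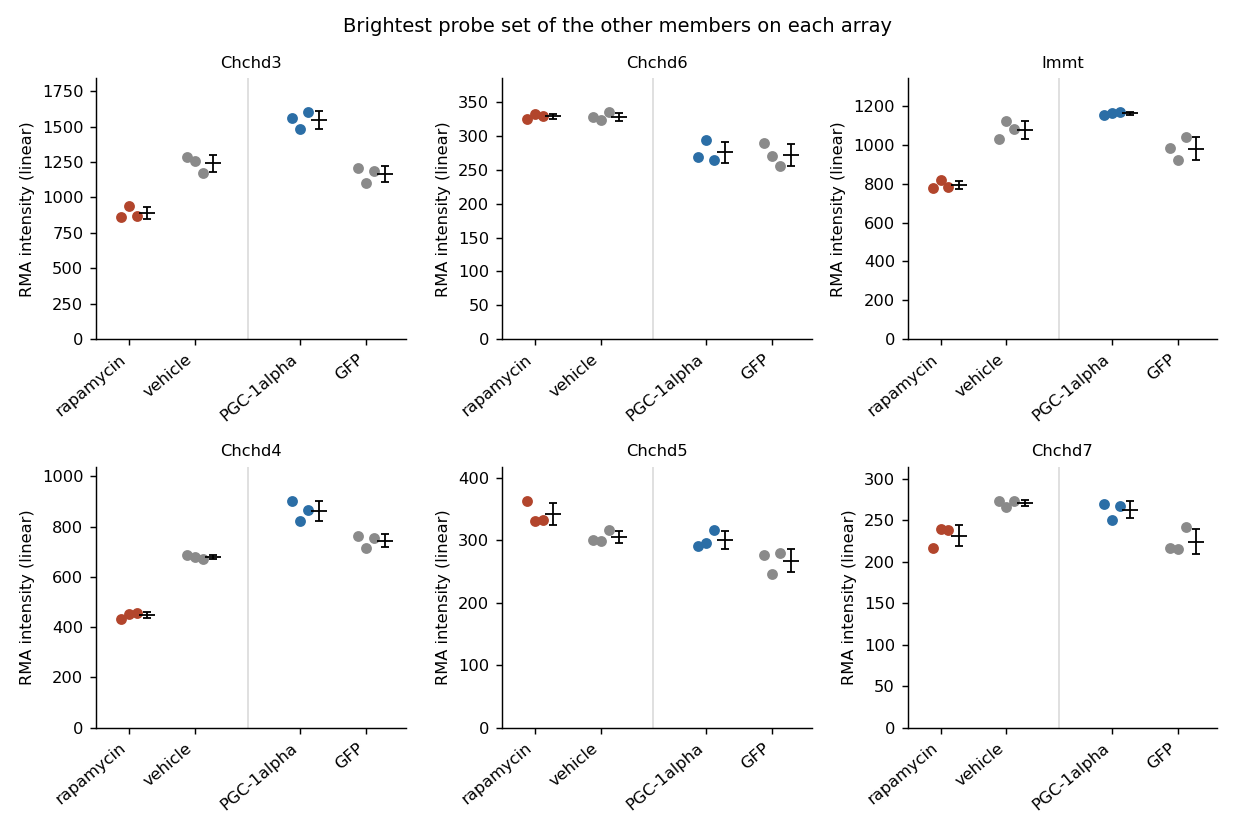
Intensity (linear RMA scale, axes from 0) of the brightest probe set of the 6 other measured members on each array, with the mean and SD beside the points; experiments were normalized apart and are parted by a grey line. Chchd3, Immt, Chchd4 and Chchd7 lie lower in rapamycin than in vehicle cells and higher in PGC-1alpha than in GFP cells, and Chchd6 overlaps in both.

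Genes whose pattern was most like that of Chchd10 were sought by Pearson correlation with its brighter probe set over the 12 arrays, after the mean of each experiment was removed and among 19728 probe sets at or above median brightness. The 5 closest genes were Ppargc1a (r = 0.99), Atp1b1 (0.98), Mdh1 (0.97), Hadhb (0.97) and Ndrg4 (0.96). Atp1b1 is a subunit of the sodium pump, Mdh1 the cytosolic malate dehydrogenase and Hadhb a subunit of the mitochondrial trifunctional protein of fatty acid oxidation. Their log2 changes with PGC-1alpha were 4.74, 0.54, 0.46, 0.41 and 1.09, and their changes with rapamycin were -0.13, -0.02, -0.01, -0.05 and 0.07. The virus carried PGC-1alpha, the product of Ppargc1a, so the r of Ppargc1a largely restates which virus was given. The Ppargc1a values are those of its brightest probe set over the 12 arrays. In the rapamycin experiment that set read 34.5 to 42.1, under every array median, and its PGC-1alpha values carried it past the brightness filter. Another Ppargc1a set was brighter in that experiment, at 48.6 to 64.8, and changed by -0.31 with rapamycin (limma adjusted p = 0.0022). The sets that read 14.6 to 22.0 there changed by -0.30 and -0.35 (limma adjusted p = 0.018 and 0.0045). The remaining set was at -0.10 and did not pass (limma adjusted p = 0.27). The arrays share the step between PGC-1alpha and GFP cells, which dominates these correlations. Against the same probe set, the other Chchd10 set stood at 0.99, the 3 Chchd3 sets at 0.73, 0.77 and 0.36, the Immt sets at 0.60, 0.58 and 0.44, Chchd4 at 0.46 and the Chchd5 sets at 0.54 and 0.47. The Chchd6 sets stood at 0.08 and -0.39, and the 4 Chchd7 sets at 0.74, -0.21, -0.44 and 0.04.

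Genes that work beside the members were taken from 7 lists, by the brightest probe set of each gene. With rapamycin 34 of the 64 measured genes fell and 6 rose, against 18.0% and 11.3% of all genes. Their median log2 change was -0.20, and that of all genes was -0.01. With PGC-1alpha 11 of the 64 rose and 0 fell, against 1.41% and 0.594% of all genes, with a median of 0.13 against 0.01. The PGC-1alpha count changed whichever array was left out, as did the count over all probe sets. Over all probe sets, rises numbered 449 with every array, 1957 without GFP replicate 3 and 113 to 144 without any other array. The count of related genes moved with it. It was 21 without GFP replicate 3, 0 without GFP replicate 1, GFP replicate 2 or PGC-1alpha replicate 1, and 1 without PGC-1alpha replicate 2 or 3.

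Of 11 further subunits and partners of MICOS, 7 fell and 2 rose with rapamycin, with a median of -0.36. Armc1 fell by 0.56, the chaperone Dnajc11 by 0.52 and the MICOS subunit Apoo (MIC26) by 0.50 (SE 0.06 each, limma adjusted p = 1.9e-05, 5.2e-05 and 3.0e-05). Only 2 of the 4 probe sets of Armc1 and of Dnajc11 fell. Apool (MIC27), a relative of Apoo, rose by 0.43 (SE 0.06, limma adjusted p = 6.1e-05), on 1 of its 3 probe sets. With PGC-1alpha 3 of the 11 rose and 0 fell, with a median of 0.21. They were Armc1 (0.37), the outer membrane protein Mtx2 (0.35) and Apoo (0.31), with limma adjusted p = 0.022, 0.020 and 0.016, Armc1 on 1 of its 4 probe sets.

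Of 13 measured genes that shape cristae, 6 fell and 1 rose with rapamycin, with a median of -0.12. Oma1, the stress-activated protease that cleaves the fusion protein Opa1, rose by 0.69 (SE 0.06, limma adjusted p = 2.7e-06), with means of 355 ± 16.9 in rapamycin cells and 219.9 in vehicle cells. Stoml2, a scaffold of the inner membrane, fell by 0.58 (SE 0.06, limma adjusted p = 6.9e-06) and Letm1, an ion transporter of the inner membrane, by 0.46 (SE 0.05, limma adjusted p = 3.0e-05), Letm1 on 1 of 4 probe sets. With PGC-1alpha the protease subunit Afg3l2 rose by 0.35 (SE 0.07, limma adjusted p = 0.028, on 2 of 3 probe sets) and the other 12 did not pass.

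Both relay partners of Chchd4 fell with rapamycin, as Chchd4 did. Gfer, the oxidase that reoxidises CHCHD4, and Aifm1, which docks it at the inner membrane, each fell by 0.39 (SE 0.06, limma adjusted p = 0.00020 and 0.00017). With PGC-1alpha neither passed, at 0.14 each (SE 0.06 and 0.07, limma adjusted p = 0.40 and 0.52).

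The small Tim chaperones, which CHCHD4 oxidises on import, fell in 5 of 7 cases with rapamycin, with a median of -0.52. Timm8a1 fell by 1.09 (SE 0.07, limma adjusted p = 2.5e-07), with means of 605 ± 52.0 in rapamycin cells and 1281 in vehicle cells. Timm9 fell by 0.66 and Timm10 by 0.53 (SE 0.06 each, limma adjusted p = 4.5e-06 and 1.8e-05), Timm9 on 1 of 2 probe sets. With PGC-1alpha these 3 genes rose, by 0.40, 0.32 and 0.31 (SE 0.08, 0.07 and 0.07), with limma adjusted p = 0.019, 0.042 and 0.048, Timm8a1 and Timm9 on 1 of 2 probe sets each.

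Other proteins with paired cysteines of the twin CX9C type moved both ways with rapamycin. Of 17 measured, 5 fell and 3 rose with rapamycin, with a median of -0.02. Cmc2 fell by 0.41 (SE 0.05, limma adjusted p = 9.4e-05) on all 4 of its probe sets and Triap1 by 0.31, while Cmc1 rose by 0.37 (SE 0.06, limma adjusted p = 0.00047) on 1 of 2. Cmc1 and Cmc2 take part in the assembly of cytochrome oxidase. With PGC-1alpha 2 of 17 rose, Ndufb10 of complex I by 0.33 and Cmc2 by 0.25 (limma adjusted p = 0.037 and 0.048), Cmc2 on 3 of 4 probe sets.

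Of 5 genes described as partners of Chchd2 or Chchd10, C1qbp alone fell with rapamycin (-0.36, SE 0.06, limma adjusted p = 0.00030) and Cxxc5 alone rose with PGC-1alpha (0.34, SE 0.08, limma adjusted p = 0.042, on 1 of 2 probe sets). Of 9 measured genes of the stress response described for human and mouse CHCHD10 mutants, 8 fell with rapamycin, with a median of -0.56. Of these, Atf4 fell on 2 of its 3 probe sets, Eif2ak1 on 2 of 5 and Dele1 on 1 of 2. Oma1 also belongs to that response but was counted with the cristae genes, and it rose by 0.69. Mthfd2, a mitochondrial folate enzyme, fell by 0.95, Trib3 by 0.86 and Ddit3 by 0.64 (limma adjusted p = 1.3e-07, 5.0e-07 and 3.1e-06), Ddit3 on 1 of 2 probe sets. With PGC-1alpha 1 of these 9 rose, Dele1, the relay of mitochondrial stress to the cytosol, by 0.28 (SE 0.06, limma adjusted p = 0.036, on 1 of 2 probe sets).

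**Figure D4:**
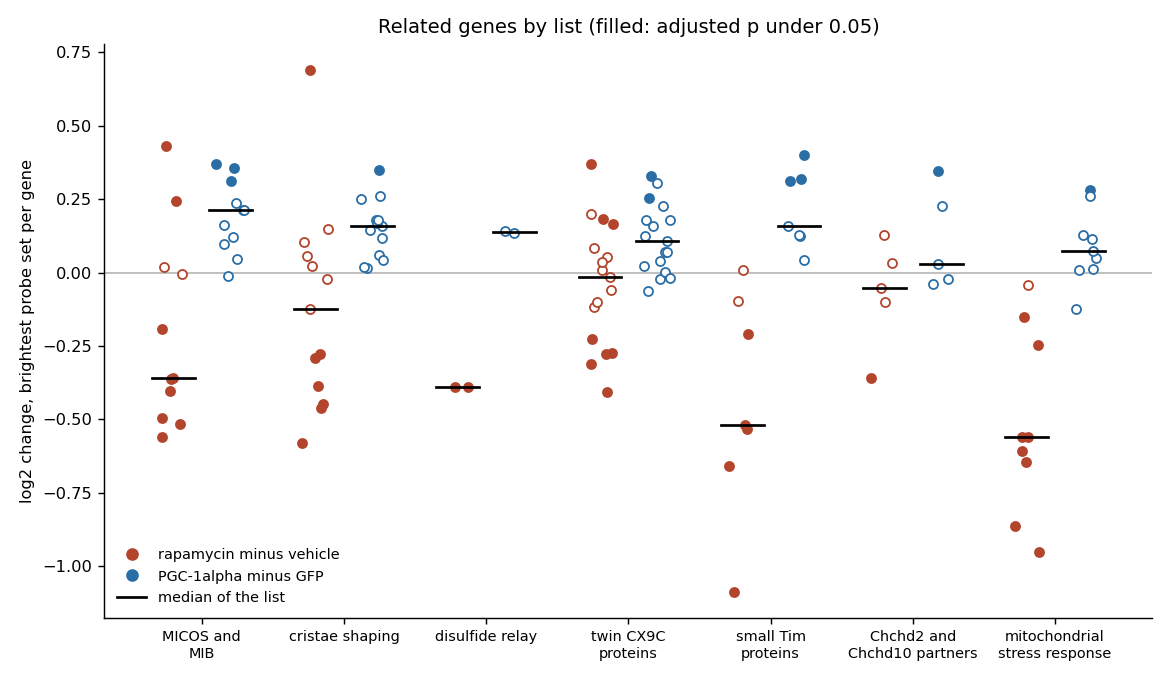
Log2 change of each measured gene of the 7 lists, by its brightest probe set, for rapamycin minus vehicle (left of each pair) and PGC-1alpha minus GFP (right); filled points have an adjusted p under 0.05 and black bars are list medians. Small Tim proteins have medians of -0.52 and 0.16, and Timm8a1 is lowest at -1.09.

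Among cell type markers, 2 of 4 epithelial, 1 of 5 macrophage and 3 of 9 fibroblast genes rose with rapamycin. Of all genes 11.3% rose. The macrophage gene, Cd68, was dim, with means of 69.1 in rapamycin and 56.7 in vehicle cells, and its groups overlapped. Csf1r, another macrophage gene, rose on 2 of its 3 probe sets but not on its brightest. Of the epithelial genes that rose, Cdh1 was also dim, at 38.9 in rapamycin and 33.0 in vehicle cells. Krt18 was brighter, at 571 in rapamycin and 388 in vehicle cells, and rose by 0.56 (SE 0.06, limma adjusted p = 1.1e-05). The fibroblast genes that rose were Pdgfrb by 0.67, Pdgfra by 0.50 and Dcn by 0.34 (limma adjusted p = 1.6e-06, 7.2e-05 and 0.00093). The summed epithelial intensity ranged from 1419 to 1475 in rapamycin cells and from 1170.3 to 1238 in vehicle cells. Endothelial, muscle and adipocyte markers had 0 called in either comparison, and none of the measured marker genes on the 6 lists was called with PGC-1alpha. The part of these markers in the members' changes was not tested.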

How the data were processed

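RNA from 12 samples, 3 in each of 4 groups, was extracted with Trizol and carried a biotin label, per the labels' protocols. Each deposited value is the intensity of a probe set, which the authors made with RMA at default settings in BioConductor 1.2, once per experiment, per the series design text. The deposited intensity scale is not stated. Values run from 9.299 to 21072.4 and were read as linear, then turned into log2 without a pseudocount. RMA equalises the arrays of an experiment, so these values hold no total RNA per cell, and no value marks where background ends. The number of arrays limits the precision.

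The 64 control probe sets were left out and 45037 tested, of which 34945 had 1 symbol, 932 several and 9160 none. Symbols were updated through Entrez IDs to RefSeq (GRCm38.p6), where 34741 matched. Rapamycin and PGC-1alpha comparisons used 6 arrays each, in separate fits by limma 3.58.1 in R 4.3.3 (lmFit, eBayes, two-sided), with Benjamini-Hochberg adjustment over all 45037 and a threshold of 0.05. SE is limma's moderated standard error. The fit was tested on simulated data. Named genes were all member probe sets, and in each list the called genes that changed most, up to 3, and the largest change in the other direction (the 2 lowest p-values where no gene was called). Members and lists were chosen with earlier results of these data known. The p-values measure the spread between these samples. Tables and figures were made with Python 3.11.15, pandas 2.3.3 and matplotlib 3.10.9.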

Additional observations from a re-analysis of the deposited data

How the results depend on the processing

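The 8 falls with rapamycin among member probe sets kept their direction and their call in the 12 alternatives run: each array left out in turn, the replicate block, a fit over 12 arrays, quantile normalization over 12 arrays, spike scaling, a filter on dim probe sets and another variance prior. Spike scaling lowered every rapamycin change by the same amount, so it could not turn a fall. It called 13 falls and 0 rises among the 17. Rises numbered 2 with quantile normalization and with the filter, and 1 to 2 with an array left out. With spike scaling 1253 probe sets rose and 23869 fell over all, 4.99% rises among calls against 45.1%, and Chchd6 (brighter probe set) was at -0.22 rather than 0.00. With PGC-1alpha that scaling put the median change at 0.19 and called 308 rises and 26 falls, 92.2% against 51.1%. Spike controls were higher in rapamycin than in vehicle cells (10.38 to 10.58 against 10.20 to 10.34 on the log2 scale). Those of PGC-1alpha and GFP cells overlapped (9.91 to 10.21 against 10.10 to 10.44). Related genes raised with rapamycin numbered 10 with quantile normalization and 2 with spike scaling, and those raised with PGC-1alpha 5 with spike scaling and 0 to 21 with an array left out. The 12-array fit called 807 rises and 678 falls with PGC-1alpha, 8 of them among member probe sets, and leaving out an array gave 113 to 1957 rises, 166 to 880 falls and 3 to 7 member rises. Both Chchd10 probe sets stayed between 1.54 and 2.20 with PGC-1alpha in these alternatives. Samples with the same replicate number did not deviate together (correlations of -0.05, 0.07 and 0.00 with rapamycin and -0.13, 0.23 and -0.01 with PGC-1alpha). With the replicate block 5128 rose and 6243 fell with rapamycin and 436 and 395 with PGC-1alpha, 3 member rises remaining there. The cause of these shifts was not tested.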
